A study of Mus musculus with 11 samples.

Results

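Asparagine, proline and glutamate metabolism was followed through 8 enzyme genes, which are Asns, Aldh18a1, Pycr1, Gpt2, Got1, Got2, Glul and Glud1. They were listed by symbol for their roles in making asparagine and proline and in handling glutamine, glutamate and amino groups, and each symbol matched 1 of the 55416 gene identifiers measured. All 8 were among the 12909 genes whose normalized counts averaged 10 or more, which were the genes tested. The cells were EC4, a mouse liver cancer line grown in DMEM with 200 µM methionine, and all 4 groups came from this 1 line. Polyadenylated RNA was sequenced after 24 h in DMEM with 10 or 200 µM methionine. The genotype label was MYC on for MYC high cells and MYC off for MYC low cells, and the labels do not give how MYC was switched. At 200 µM there were 2 libraries of MYC high cells, numbered 2 and 3, and 3 of MYC low cells, and at 10 µM there were 3 libraries of each.

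Glutamate is the hub of this network. Asparagine synthetase (Asns) moves the amide group of glutamine onto aspartate, and its gene is a textbook target of the transcription factor ATF4, which is made when amino acids run short. Proline is built from glutamate inside mitochondria, where Aldh18a1 makes the precursor of pyrroline carboxylate and Pycr1 reduces pyrroline carboxylate to proline. Gpt2, Got1 and Got2 are aminotransferases that trade amino groups between glutamate and alanine or aspartate. Glul, glutamine synthetase, joins ammonia to glutamate, and Glud1, glutamate dehydrogenase, releases ammonia from glutamate and yields a citric acid cycle intermediate. In normal liver Glul is restricted to the hepatocytes around the central vein.

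Each library held 10858936 to 13085689 reads on genes. Nothing in the labels tells whether replicates were separate cultures, so the p-values measure only how much these libraries vary, which may be technical. The Myc transcript averaged 2089 ± 106 normalized counts with MYC high (SD, n = 2) against 1136 ± 31.3 with MYC low at 200 µM (SD, n = 3), but 336 ± 39.2 against 336 ± 13.5 at 10 µM (SD, n = 3 each). These are counts of the mouse Myc gene, and the labels do not tell whether they include the MYC that was switched. Directions between MYC states therefore rest on the labels in both media. Of 8 hepatocyte markers, 3 (Alb, Cps1 and Cyp2e1) had no read in any library and 1, Ass1, passed the filter on low values. Their sum ranged from 149.6 to 153 normalized counts with MYC high and 402 to 484 with MYC low at 200 µM, and from 383 to 395 and 549 to 582 at 10 µM. The 4 biliary markers, of which Epcam had no read and 3 passed the filter, summed to 1605 to 1652 and 3273 to 3578 at 200 µM and to 11581 to 12737 and 11151 to 11378 at 10 µM, in the same order of groups. Nearly all of that sum was Krt19, and its members did not move together: Sox9 was lower at low methionine (log2 -1.79 with MYC high and -0.74 with MYC low), and at 10 µM Krt7 (-2.64) and Sox9 (-1.46) were lower with MYC while Krt19 was higher (0.12). The 4 fetal liver markers, of which Gpc3 had no read, summed to 149.6 to 162 and 78.0 to 106, then 337 to 366 and 118 to 146. Nearly all of this sum was Afp, the 1 fetal liver marker that passed the filter. The 4 macrophage markers, of which Ptprc had no read, summed to 263 to 286 and 482 to 533, then 873 to 906 and 929 to 973. Of the 2 macrophage markers that passed the filter, Cd68 was higher with MYC at 10 µM (log2 1.15) and Csf1r was lower (-0.77). Fibroblast and endothelial markers summed to at most 27.3 and 4.07 in any library. The part of these markers in the results was not tested.

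Letters upstream of the start sites are shown for the 4 enzymes that held a match to either of the motifs searched. The motifs were CACGTG, the E-box core that MYC and related factors bind, and TGATGNAA, the core of the element that ATF4 and C/EBP proteins bind. Both strands were searched in the 250 bases before each RefSeq start, and the 2 motifs share no site. TGATGNAA occurred in 3 of the 8 windows (Asns, Pycr1 and Got1) and CACGTG in 1 (Aldh18a1). Among 32851 windows of this length 3.45% held TGATGNAA and 6.02% held CACGTG. The sequences come from RefSeq on GRCm38.p6, an earlier build than the GRCm39 of the submitters' processing notes, and capitals mark the match. They are written on the strand of the gene, which is the minus strand in each case. The first pair are the windows, for Pycr1 without the 21 bases that lie inside its GENCODE gene, and the last pair are the matches with the bases around them.
Pycr1, chr11:120643770-120643998: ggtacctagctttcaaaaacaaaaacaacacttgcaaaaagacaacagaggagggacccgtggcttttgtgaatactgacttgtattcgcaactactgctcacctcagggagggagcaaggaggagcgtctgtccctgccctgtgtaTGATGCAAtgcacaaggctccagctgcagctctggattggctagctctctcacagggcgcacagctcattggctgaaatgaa
Got1, chr19:43524606-43524855: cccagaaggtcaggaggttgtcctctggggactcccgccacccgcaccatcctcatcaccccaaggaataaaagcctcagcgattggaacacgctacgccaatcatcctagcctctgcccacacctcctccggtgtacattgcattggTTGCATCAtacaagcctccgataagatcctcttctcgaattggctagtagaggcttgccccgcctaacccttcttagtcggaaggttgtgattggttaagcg
Asns, chr6:7693215-7693242: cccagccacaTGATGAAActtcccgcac
Aldh18a1, chr19:40588507-40588532: agggggccgcCACGTGgagcgtgggc
The match lay 103 bases before the start in Pycr1, 102 in Got1, where it is on the opposite strand, 59 in Aldh18a1 and 23 in Asns, whose site falls within the first exon of the GENCODE gene. A match describes these letters only, and binding was not measured here.

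At 200 µM methionine, 6 of the 8 enzymes were higher and 1, Glul, was lower in MYC high than in MYC low cells, while Gpt2 did not pass. Over all genes tested, 36.8% were called higher and 37.6% lower in this comparison. The median log2 difference of the 8 was 0.65, and that of all genes was -0.003. At 10 µM, 7 were higher and 1, again Glul, was lower, against 35.7% and 35.8% of all genes, with a median of 1.13 beside 0.002. A gene counts as called here where limma's adjusted p, corrected over all 12909 genes, was under 0.05.

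Low methionine went with lower levels of most of the 8 in both MYC states. In MYC high cells 5 fell (Asns, Pycr1, Aldh18a1, Got1 and Glul) and 2 rose (Gpt2 and Glud1), where 37.9% of all genes were called in each direction. In MYC low cells 5 fell (Asns, Pycr1, Aldh18a1, Got1 and Gpt2) and Glud1 rose, against 29.9% and 29.4% of all genes. The medians of the 8 were -0.40 with MYC high and -1.01 with MYC low, beside -0.004 and 0.001 over all genes. These comparisons share libraries with those between MYC states. The interaction, taken as the log2 change from 200 to 10 µM with MYC high less the same change with MYC low, was positive for 5 and negative for 2 of the 8, against 31.0% and 29.4% of all genes. Got2 was the enzyme whose interaction did not pass.

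**Figure D1:**
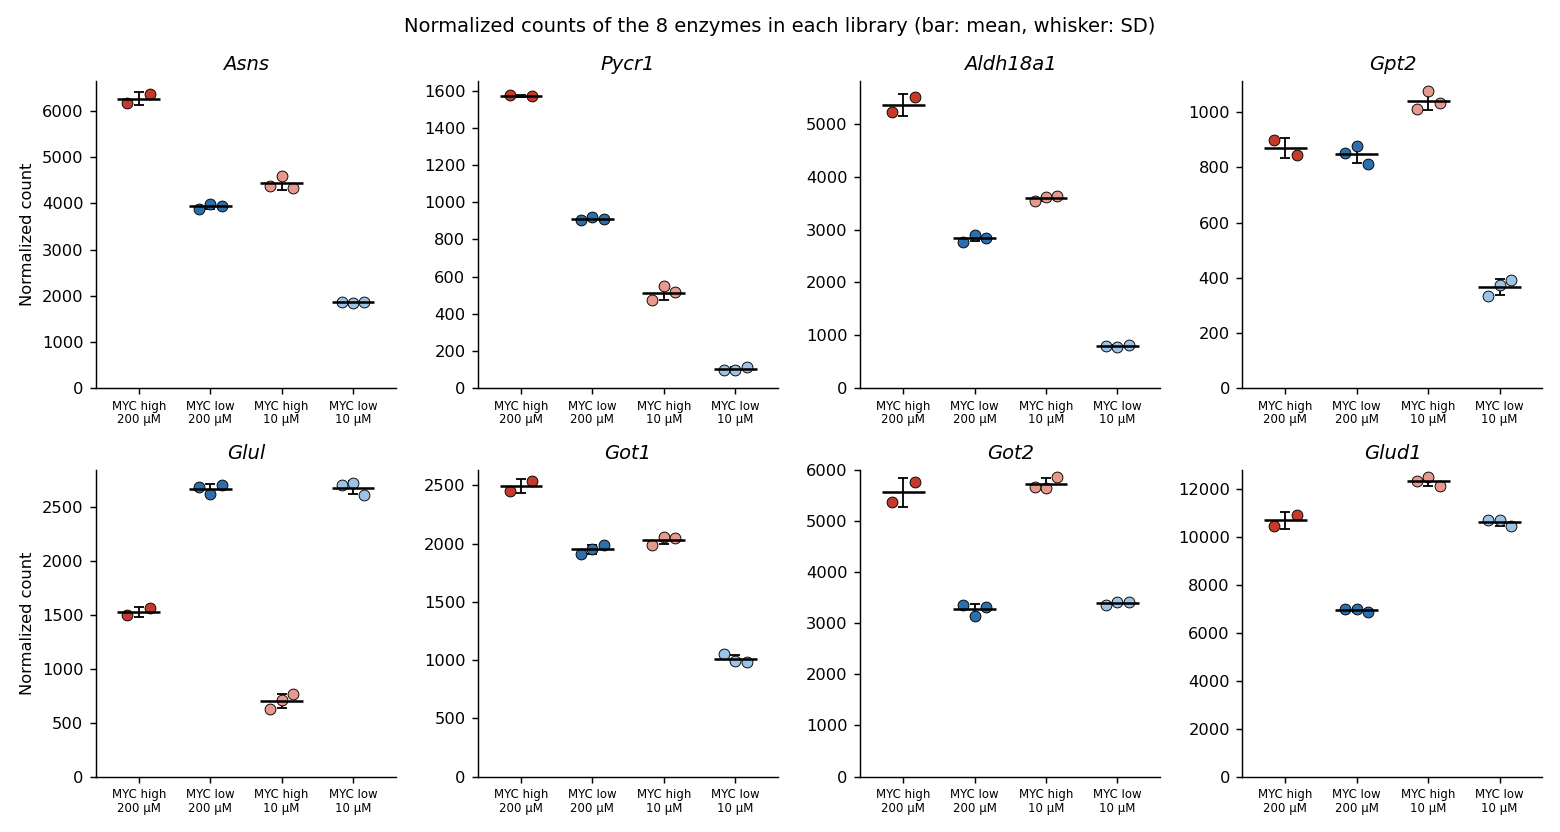
Normalized counts (y axis, linear from 0) of the 8 enzymes in each library (points) of the 4 groups (x axis), with the group mean and SD marked. Asns, Pycr1, Aldh18a1, Gpt2 and Got1 are lowest in MYC low cells at 10 µM, Glul is lowest in MYC high cells at 10 µM, and Got2 separates by MYC state.

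Asns (ENSMUSG00000029752) was highest with MYC and methionine both high and lowest with both low. The MYC high libraries at 200 µM held 6169.7 and 6382 normalized counts, and the MYC low libraries at 200 µM held 3877, 3979 and 3951. At 10 µM the values were 4377, 4601 and 4341 with MYC high and 1866, 1848 and 1861 with MYC low. The 4 groups did not overlap, and every neighbouring pair in the order of levels passed, including MYC high at 10 µM above MYC low at 200 µM by 0.17 on the log2 scale (SE 0.0319, adjusted p = 8.44e-06). Asns was 1.59-fold higher with MYC at 200 µM (log2 0.67, SE 0.0357, adjusted p = 4.13e-19) and 2.39-fold higher at 10 µM (log2 1.26, SE 0.0319, adjusted p = 3.36e-29). At low methionine its level fell 1.41-fold in MYC high cells (log2 -0.50, SE 0.0357) and 2.12-fold in MYC low cells (log2 -1.08, SE 0.0319). The fall was smaller in MYC high cells, with an interaction of 0.58 (SE 0.0479, adjusted p = 4.56e-13). In bulk RNA, fewer cells that make a transcript and less of it per cell cannot be told apart.

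Both proline enzymes followed the same directions as Asns over wider ranges. Aldh18a1 (ENSMUSG00000025007), which carries out the first steps from glutamate, held 5218 and 5512 normalized counts in MYC high libraries at 200 µM. Its MYC low libraries at 200 µM held 2770.0, 2889.8 and 2846. At 10 µM the level was 3533, 3615 and 3627 with MYC high but 795, 779 and 807 with MYC low. All 4 groups were apart, and MYC low cells at 10 µM lay far under the rest. The MYC difference was 1.89-fold at 200 µM (log2 0.92, SE 0.0389, adjusted p = 4.72e-22) and 4.52-fold at 10 µM (log2 2.18, SE 0.0348, adjusted p = 1.35e-35). At low methionine Aldh18a1 fell by 0.58 on the log2 scale in MYC high cells (SE 0.0389) and by 1.84 in MYC low cells (SE 0.0348), and the interaction was 1.26 (SE 0.0522, adjusted p = 1.3e-21).

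Pycr1 (ENSMUSG00000025140), the reductase of the last step, covered the widest range of the 8, 15.4-fold between group means, where Aldh18a1 covered 6.76-fold. It held 1578 and 1571 normalized counts with MYC high and 904, 920.0 and 911 with MYC low at 200 µM. At 10 µM it held 473, 549.9 and 514 with MYC high and 94.9, 98.7 and 113 with MYC low. Unlike in Asns and Aldh18a1, both groups at 10 µM lay under both groups at 200 µM, and no groups overlapped. The lowest group rested on 104 to 128 reads a library. Pycr1 fell 3.07-fold at low methionine in MYC high cells (log2 -1.62, SE 0.0741, adjusted p = 3.91e-21) and 8.92-fold in MYC low cells (log2 -3.15, SE 0.0662, adjusted p = 4.32e-31). The interaction was 1.53 (SE 0.0994, adjusted p = 7.7e-16). MYC high cells held 1.73-fold more at 200 µM (log2 0.79, SE 0.0741) and 5.02-fold more at 10 µM (log2 2.32, SE 0.0662).

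**Figure D2:**
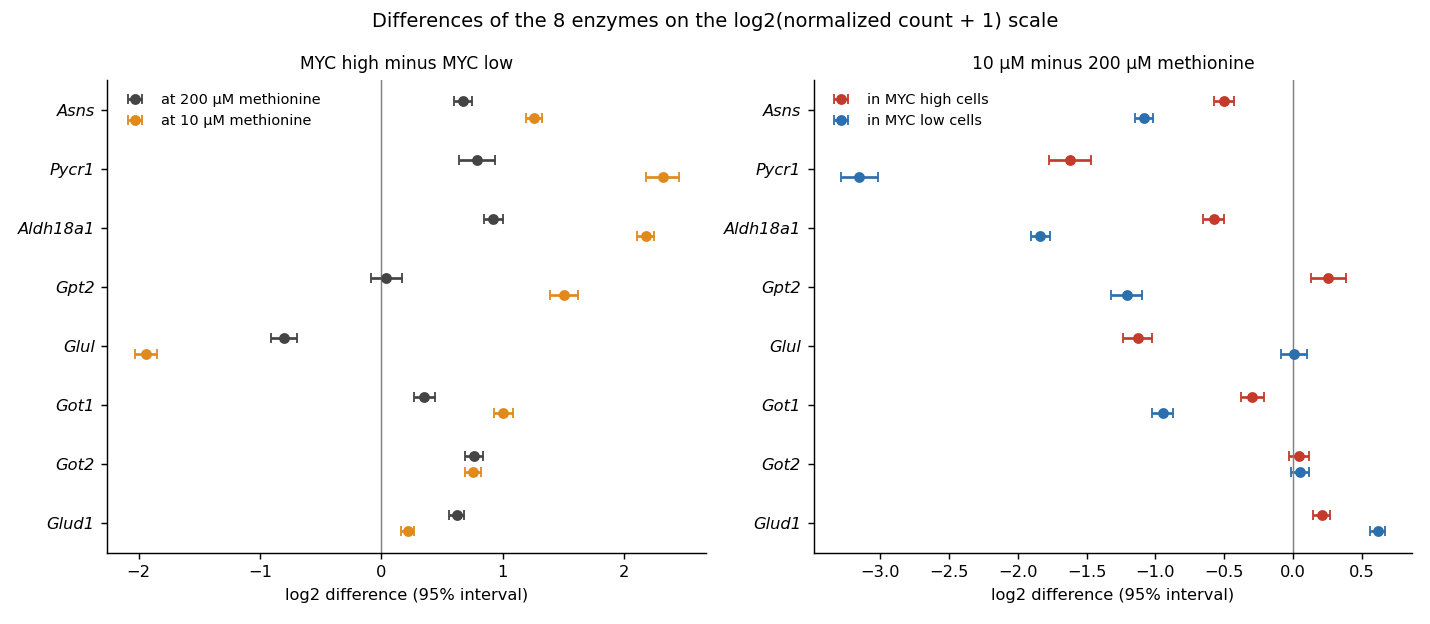
Log2 differences (x axis, points, with 95% intervals from limma) of the 8 enzymes (y axis) between MYC states in each medium (left) and between media in each MYC state (right). The MYC difference of Gpt2 lies at 0.04 at 200 µM and 1.5 at 10 µM, and that of Got2 at 0.76 and 0.75.

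Gpt2 (ENSMUSG00000031700), the mitochondrial alanine aminotransferase, moved in opposite directions with methionine in the MYC states. MYC high libraries held 898 and 847 normalized counts at 200 µM and 1011, 1076 and 1034 at 10 µM. MYC low libraries held 852, 877 and 814 at 200 µM, overlapping the MYC high libraries, and 334, 375 and 392 at 10 µM. Gpt2 rose 1.19-fold in MYC high cells (log2 0.25, SE 0.0623, adjusted p = 0.000414) and fell 2.31-fold in MYC low cells (log2 -1.21, SE 0.0557, adjusted p = 2e-20). The interaction was 1.46 (SE 0.0836, adjusted p = 1.76e-17). The MYC difference did not pass at 200 µM (log2 0.04, 95% interval -0.09 to 0.17, adjusted p = 0.557), and its sign turned under library totals (-0.0447) and without MYC high replicate 2 (-0.0012). At 10 µM Gpt2 was 2.84-fold higher in MYC high cells (log2 1.5, SE 0.0557, adjusted p = 5.39e-24).

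The cytosolic and mitochondrial aspartate aminotransferases, partners in the malate-aspartate shuttle, had different patterns. Got1 (ENSMUSG00000025190), the cytosolic enzyme, held 2451 and 2537 normalized counts with MYC high and 1912, 1955 and 1985 with MYC low at 200 µM. At 10 µM it held 1986, 2057 and 2047 with MYC high and 1052, 994 and 988 with MYC low. MYC high cells at 10 µM lay next to MYC low cells at 200 µM and did not differ from them past the threshold (log2 0.06, 95% interval -0.019 to 0.14, adjusted p = 0.17), and the other neighbouring groups did. Got1 was 1.28-fold higher with MYC at 200 µM (log2 0.35, SE 0.0426) and 2.01-fold higher at 10 µM (log2 1.0, SE 0.0381). At low methionine it fell by 0.30 on the log2 scale with MYC high (SE 0.0426, adjusted p = 9.36e-08) and by 0.95 with MYC low (SE 0.0381, adjusted p = 3.26e-22), with an interaction of 0.65 (SE 0.0572, adjusted p = 2.61e-12).

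Got2 (ENSMUSG00000031672), the mitochondrial enzyme, separated by MYC state. Its normalized counts were 5362 and 5763 with MYC high and 3351, 3149.8 and 3326 with MYC low at 200 µM, and 5657, 5643 and 5867 against 3350.0, 3415 and 3406 at 10 µM. The media overlapped within each MYC state, and the MYC states did not overlap. The MYC difference was 1.7-fold at 200 µM (log2 0.76, SE 0.0368, adjusted p = 2.44e-20) and 1.69-fold at 10 µM (log2 0.75, SE 0.0329, adjusted p = 9.79e-22). Neither methionine response passed, with log2 0.04 for MYC high cells (95% interval -0.03 to 0.12, adjusted p = 0.307) and 0.05 in MYC low cells (-0.017 to 0.12, adjusted p = 0.192). With library totals as the scale, the response in MYC high cells was 0.0887 and passed (adjusted p = 0.0284), and without MYC high replicate 2 at 200 µM it was -0.0105. The interaction was -0.0086 (95% interval -0.11 to 0.09, adjusted p = 0.892), with a sign that turned under 6 alternatives. Gm45760, a gene model on the other strand, shares 434 bases, or 9.0%, of the Got2 exons. At 200 µM Gm45760 averaged 1929 ± 59.2 with MYC high (SD, n = 2) against 1124 ± 78.0 with MYC low (SD, n = 3), and at 10 µM 1953 ± 33.7 against 1119 ± 45.8 (SD, n = 3 each). No source used here gives the strand setting of the counting, so reads of Got2 and Gm45760 cannot be told apart where they overlap.

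Glul (ENSMUSG00000026473), glutamine synthetase, was the enzyme of the 8 that was lower with MYC. MYC low libraries held 2678, 2616 and 2699 normalized counts at 200 µM and 2702, 2718 and 2608 at 10 µM, and these groups overlapped. MYC high libraries held 1493 and 1558 at 200 µM and 627, 709.9 and 760.4 at 10 µM, below every MYC low library. Glul was 1.75-fold lower with MYC at 200 µM (log2 -0.80, SE 0.0517, adjusted p = 1.36e-16) and 3.83-fold lower at 10 µM (log2 -1.94, SE 0.0463, adjusted p = 4.46e-30). At low methionine Glul fell 2.18-fold in MYC high cells (log2 -1.13, SE 0.0517, adjusted p = 4.16e-21). In MYC low cells the difference was 0.0061 on the log2 scale (95% interval -0.09 to 0.10, adjusted p = 0.919), and its sign turned under TMM scaling (-0.0064) and without any of 3 single libraries. The interaction was -1.14 (SE 0.0694, adjusted p = 1.29e-16). Teddm2, a gene on the opposite strand, shares 116 bases, or 3.49%, of the Glul exons, and reads of the pair cannot be told apart there.

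Glud1 (ENSMUSG00000021794), glutamate dehydrogenase, rose with low methionine in both MYC states. Per kilobase of merged exon its mean level was the highest of the 8 in each group, from 1649 to 2924 normalized counts, while Pycr1 and Gpt2 had the lowest. MYC high libraries held 10437 and 10917 normalized counts at 200 µM and 12335, 12496 and 12097 at 10 µM. MYC low libraries held 6974, 6998 and 6848 at 200 µM and 10692, 10690.5 and 10429 at 10 µM. MYC low cells at 10 µM overlapped MYC high cells at 200 µM, with a difference of -0.0096 on the log2 scale (95% interval -0.07 to 0.05, adjusted p = 0.778). Glud1 rose 1.15-fold in MYC high cells (log2 0.21, SE 0.0308, adjusted p = 2.16e-07) and 1.53-fold in MYC low cells (log2 0.61, SE 0.0275, adjusted p = 1.04e-20), an interaction of -0.41 (SE 0.0413, adjusted p = 1.01e-10). The MYC difference was 1.54-fold at 200 µM (log2 0.62, SE 0.0308) and 1.16-fold at 10 µM (log2 0.22, SE 0.0275, adjusted p = 9.74e-09).

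Ratios within a library do not depend on the scaling between libraries, and they show how transcript levels of 2 enzymes stood to each other. Their size depends on the merged exon lengths, which need not be those of the transcripts made, but their order across groups does not. Without division by length, Got2 averaged 3276 and Got1 1950 normalized counts in MYC low cells at 200 µM. The Got2 values carry the overlap with Gm45760 described above. Per kilobase of merged exon, Got2 was 1.15 and 1.2 times Got1 in MYC high libraries at 200 µM and 0.922, 0.848 and 0.882 times Got1 in MYC low libraries. At 10 µM the ratio was 1.5, 1.44 and 1.51 with MYC high and 1.68, 1.81 and 1.81 with MYC low, so both groups at 10 µM lay above both at 200 µM. Aldh18a1 was 3.2 and 3.39 times Pycr1 with MYC high and 2.96, 3.04 and 3.02 times Pycr1 with MYC low at 200 µM. At 10 µM it was 7.22, 6.35 and 6.81 times Pycr1 with MYC high and 8.1, 7.63 and 6.91 times with MYC low, and these groups overlap. Glud1 was 5.52 and 5.53 times Glul with MYC high and 2.06, 2.11 and 2.0 times Glul with MYC low at 200 µM. At 10 µM the ratio of Glud1 to Glul was 15.5, 13.9 and 12.6 with MYC high and 3.12, 3.1 and 3.16 with MYC low, so the MYC high groups were above the MYC low groups in both media. These ratios were not tested.

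**Figure D3:**
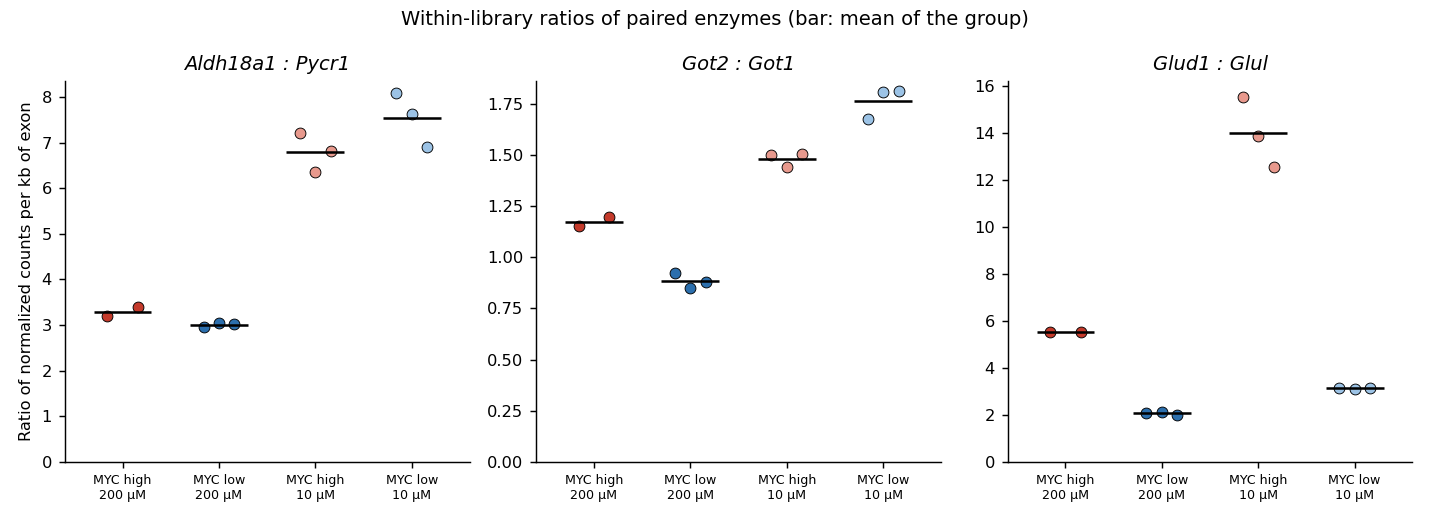
Ratios of normalized counts per kilobase of merged exon (y axes, linear from 0) of Aldh18a1 to Pycr1, Got2 to Got1 and Glud1 to Glul in each library (points) of the 4 groups, with bars at the group means. Aldh18a1 to Pycr1 and Got2 to Got1 are higher in both groups at 10 µM, and Glud1 to Glul is highest in MYC high cells at 10 µM.

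Related genes of the same network were listed by role, 53 in all, of which 36 were tested. In MYC high cells 25 of the 36 rose with low methionine, 7 fell and 4 did not pass, with a median log2 difference of 0.46, where 37.9% of all genes were called in each direction. In MYC low cells 21 rose, 4 fell and 11 did not pass, with a median of 0.22, against 29.4% of all genes called higher and 29.9% lower. Between MYC states, 18 were higher and 14 lower with MYC at 200 µM (median 0.19), and 21 were higher and 10 lower at 10 µM (median 0.43). The shares of all genes were 36.8% higher and 37.6% lower at 200 µM, and 35.7% and 35.8% at 10 µM. The interaction was positive for 19, negative for 7 and not passed for 10, against 31.0% and 29.4% of all genes positive and negative.

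The proline breakdown genes Aldh4a1 and Prodh rose with low methionine in MYC high cells, where Aldh18a1 and Pycr1 fell. Aldh4a1, the mitochondrial enzyme that turns pyrroline carboxylate back into glutamate, averaged 76.7 ± 28.9 normalized counts (SD, n = 2) at 200 µM and 693 ± 37.0 (SD, n = 3) at 10 µM in MYC high cells. It rose by 3.21 on the log2 scale in MYC high cells (SE 0.109, adjusted p = 4.02e-25) and by 1.4 in MYC low cells (SE 0.0976). Prodh, proline dehydrogenase, rose in MYC high cells by 1.11 (SE 0.14), and its difference in MYC low cells was -0.07 (95% interval -0.33 to 0.18, adjusted p = 0.636). Between MYC states Prodh had the direction of Aldh18a1 and Pycr1, higher with MYC by 0.95 (SE 0.14) at 200 µM and by 2.13 (SE 0.125) at 10 µM, while Aldh4a1 was lower, at -2.65 (SE 0.109) and -0.84 (SE 0.0976). Pycrl, a reductase gene of the Pycr1 family, fell by 0.36 in MYC high cells and differed by 0.07 in MYC low cells (adjusted p = 0.344). Of the 6 proline and ornithine genes tested, 2 rose and 2 fell in MYC high cells, and 3 rose and 0 fell in MYC low cells. Beside the 37.9% of all genes called each way with MYC high, and 29.4% and 29.9% with MYC low, 2 of 6 each way is near the share of all genes.

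Among related genes listed under asparagine and aspartate, 6 of 7 tested rose with low methionine in MYC high cells (37.9% of all genes). The other, Adss, fell by 0.27 (SE 0.0396). Ass1 and Asl, which pass aspartate nitrogen into arginine, rose by 1.35 (SE 0.0793) and 0.95 (SE 0.0787) with MYC high and by 0.31 and 0.33 with MYC low. Adssl1, an adenylosuccinate synthase, rose by 1.37 (SE 0.0727) and 0.21 (SE 0.065). In MYC low cells 4 of the 7 rose (29.4% of all genes) and Adss fell. Ass1 was lower with MYC, at log2 -1.57 (SE 0.0793) at 200 µM and -0.53 (SE 0.0709) at 10 µM, the opposite direction to Asns.

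Genes that split or spend glutamate and glutamine differed among themselves. The glutaminase gene Gls2, whose enzyme releases glutamate from glutamine, was higher with MYC by 1.07 (SE 0.211) at 200 µM and by 1.8 (SE 0.189) at 10 µM. It rose by 1.04 (SE 0.211) with low methionine in MYC high cells. In MYC low cells its difference was 0.31 and did not pass (95% interval -0.07 to 0.69, limma adjusted p = 0.155). Gclc and Gclm, the subunits of the enzyme that joins glutamate to cysteine for glutathione, were lower with MYC, at log2 -0.92 and -0.88 at 200 µM and -0.55 and -0.96 at 10 µM. Of 8 glutamine amidotransferase genes tested, 5 were higher and 2 lower with MYC at 200 µM, beside 36.8% and 37.6% of all genes, and 5 were higher and 1 lower at 10 µM, beside 35.7% and 35.8%. Ppat of purine synthesis was higher by 1.36 (SE 0.056) at 200 µM. Gfpt1, which starts hexosamine synthesis, rose by 0.98 (SE 0.0443) with low methionine in MYC high cells and by 0.18 (SE 0.0397) in MYC low cells.

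Among the other aminotransferases, Psat1 of serine synthesis had opposite directions as Gpt2 did, with a rise of 0.68 (SE 0.0336) in MYC high cells and a fall, log2 -0.41 (SE 0.030), in MYC low cells at low methionine. Its interaction was 1.1 (SE 0.0451, adjusted p = 9.86e-22). Gpt, the isoenzyme of Gpt2, was lower with MYC, at log2 -0.54 (SE 0.157) at 200 µM and -0.40 (SE 0.14) at 10 µM. All 4 of these genes that were tested rose with low methionine in MYC high cells (37.9% of all genes), and in MYC low cells 1 rose and 1 fell (29.4% and 29.9%). The list of malate-aspartate shuttle and carrier genes leaves out the members Got1 and Got2. At low methionine Got1 fell in both MYC states and Got2 passed in neither. Of the 6 listed genes tested, 5 rose with low methionine in MYC high cells (37.9% of all genes). All 6 rose in MYC low cells (29.4% of all genes). The malate dehydrogenase Mdh1 rose by 0.96 (SE 0.0395) and 0.44 (SE 0.0354), and the aspartate and glutamate carrier Slc25a12 by 1.07 (SE 0.0518) and 0.48 (SE 0.0464). The glutamate carrier Slc25a22 fell by 0.23 (SE 0.0858) in MYC high cells and rose by 0.35 (SE 0.0767) in MYC low cells.

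**Figure D4:**
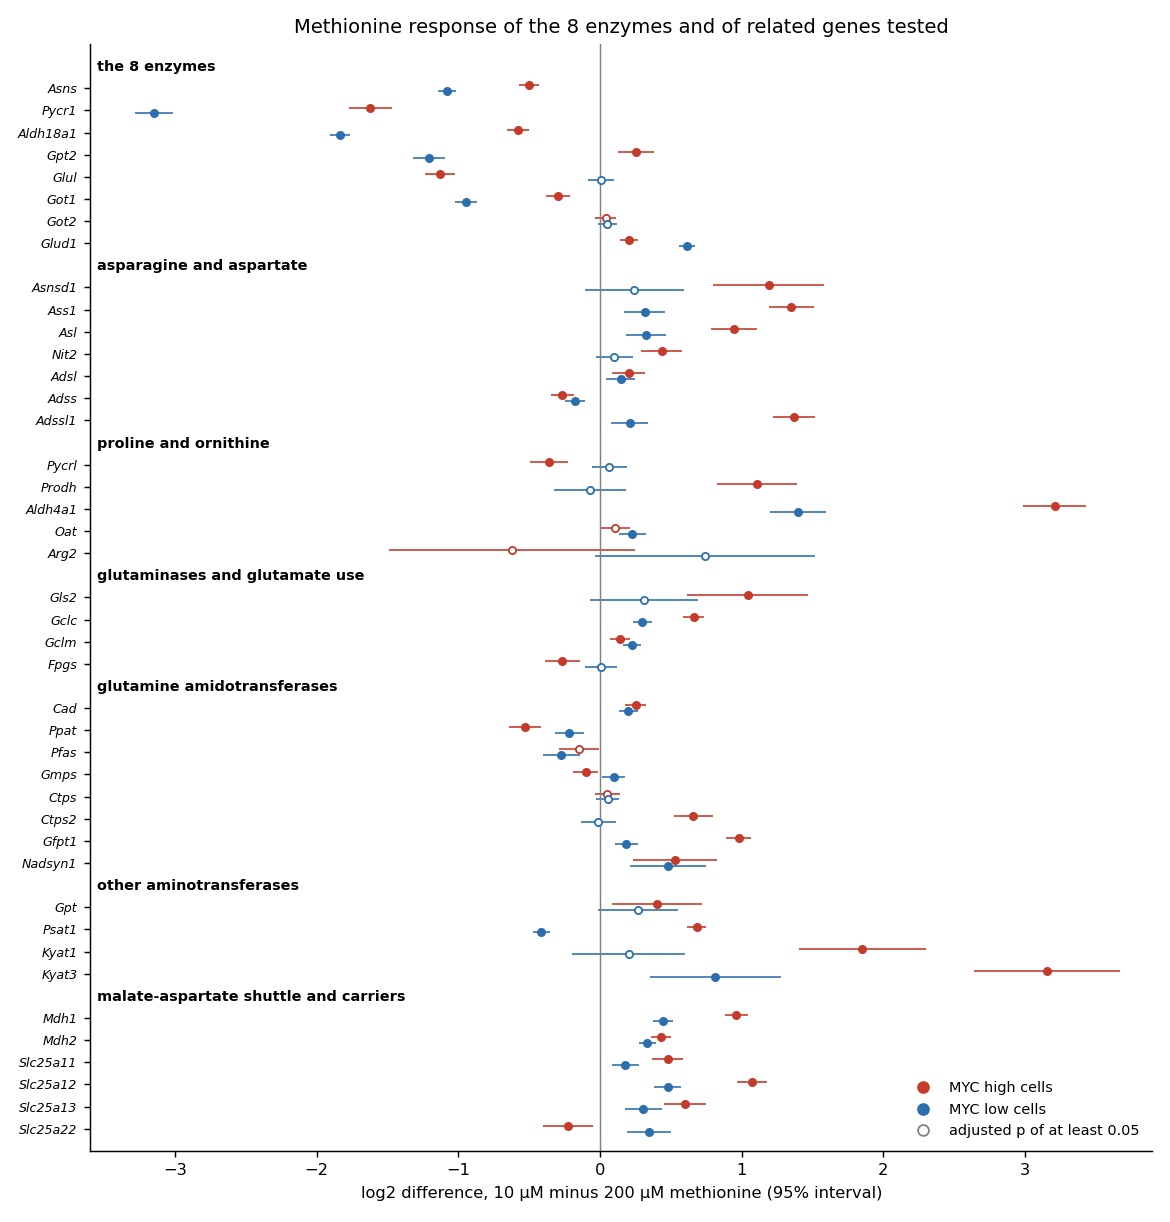
Log2 difference between 10 and 200 µM methionine (x axis) of the 8 enzymes and of 34 related genes (y axis, grouped by role) in MYC high and MYC low cells, with open points where the adjusted p was not under 0.05. Aldh4a1 lies at 3.21 and 1.4, opposite in sign to Pycr1 and Aldh18a1.

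Atf4 transcript, which encodes the factor named above for Asns, averaged 5637 ± 108 normalized counts with MYC high (SD, n = 2) against 3492 ± 46.0 with MYC low at 200 µM (SD, n = 3), and 2871 ± 151 against 2005 ± 39.4 at 10 µM (SD, n = 3 each). It fell at 10 µM by 0.97 (SE 0.0393) on the log2 scale with MYC high and by 0.80 (SE 0.0352) with MYC low. It was higher with MYC by 0.69 at 200 µM and 0.52 at 10 µM. Its protein was not measured here.

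The genes with the pattern most like each enzyme were taken by the root mean square difference between centred log2 profiles over the 11 libraries, among 9722 others that averaged 100 normalized counts or more. Asns lay nearest to the ribosomal protein genes Rpl37 (0.0896) and Rpl26 (0.113) and to the tRNA exporter Xpot (0.119). Aldh18a1 lay nearest to Hmga1 (0.147), Hmga1b (0.17) and Shmt2 (0.216), the mitochondrial serine hydroxymethyltransferase, and Hmga1 and Hmga1b are near-identical copies that can share reads. Pycr1 had more distant neighbours, with Ccdc24 at 0.267, E230016M11Rik at 0.325 and the glycine carrier Slc6a9 at 0.359. Gpt2 lay nearest to Pck2 (0.096), the mitochondrial phosphoenolpyruvate carboxykinase, Rasgef1b (0.103) and Pla2g12a (0.117). Glul lay nearest to Teddm2 (0.112), which shares exon bases with it, Efnb2 (0.1125) and Ccbe1 (0.116). Anp32b (0.0979) was among the 3 nearest to Got1. Got2 lay nearest to Nudcd2 (0.0538), Kif15 (0.0572) and Tob1 (0.0582), and Glud1 to Ewsr1 (0.0348), Hsp90b1 (0.0604) and Ubac1 (0.0658). Among the 8 themselves, Asns and Got1 were the closest pair (0.158) and Pycr1 and Glul the farthest (1.85). This measure describes likeness over these libraries and carries no test.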

How the data were processed

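The 11 libraries were analysed from 1 deposited table of signal values, labelled normalized counts, which behave as gene counts divided by 1 size factor per library. Per the submitters' processing notes, FastQC, fastp, STAR, SAMtools, HTSeq and DESeq2 were used with GRCm39. Versions, annotation release and strand setting: not given in the sources used here. Of the deposited values 100% were whole multiples of 1 step per library within 0.001, which recovers reads. Symbols (52083 of 55416 identifiers), merged exon lengths and overlaps came from GENCODE M21 on the earlier build GRCm38, so gene coordinates are left out.

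Groups, taken from the sample titles, entered 1 fit with limma 3.58.1 (R 4.3.3) on log2(normalized count + 1), with a mean per group over all 11 libraries, a trend and Benjamini-Hochberg adjustment over the 12909 genes with a mean of at least 10. The pseudocount understates log2 differences of low genes. SE is limma's moderated error, folds are ratios of group means, and SD is between libraries. The spread was pooled over groups. The fit was tested on simulated data.

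Alternatives were pseudocounts of 0.5 and 5, no filter or a mean of at least 50, TMM scaling, no trend, edgeR 4.0.16 and DESeq2 1.42.0 on the recovered reads, the compared groups alone, a replicate block and each library left out. Scaling by library totals was added after seeing the data. With edgeR's quasi-likelihood test 9583 and 9386 genes passed between MYC states at 200 and 10 µM, 9718 and 7915 between media with MYC high and low, and 7757 for the interaction. The members and lists were chosen with earlier results of these data known. Named genes are the 8 members, up to 4 genes of each related list with the smallest adjusted p in a comparison (their other comparisons may be given too), Atf4 and Myc, and the 3 genes most like each member. Some genes that this rule names are not reported here. Protein sequences were not used here.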

Additional observations from a re-analysis of the deposited data

Results flagged for a closer look

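The methionine response differed between MYC states, by the interaction test in limma, for 7 of the 8 enzymes. On the log2 scale the change with MYC high exceeded the change with MYC low by 1.53 for Pycr1, 1.46 for Gpt2, 1.26 for Aldh18a1, 0.65 for Got1 and 0.58 for Asns. The corresponding value was -1.14 for Glul and -0.41 for Glud1. For Asns, Pycr1, Aldh18a1 and Got1 the level fell in both states and fell further in MYC low cells. Gpt2 rose in MYC high and fell in MYC low cells, and both changes passed. Glul fell in MYC high cells and did not pass in MYC low cells, and Glud1 rose in both states and further in MYC low cells. Of all genes tested, 31.0% had a positive and 29.4% a negative interaction that passed. The groups held 2 or 3 libraries, too few to look for a single library that stands apart.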

How the results depend on the processing

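Across 5 comparisons of 8 enzymes, the alternatives gave 872 values, of which 858 kept both direction and side of the threshold. The rest belong to 4 differences near 0 that did not pass. For Gpt2 between MYC states at 200 µM, library totals gave -0.0447, and single libraries left out gave -0.0012 (MYC high replicate 2) to 0.0838. For Got2 between media in MYC high cells, library totals gave 0.0887 and a call, and single libraries left out gave -0.0105 (MYC high replicate 2 at 200 µM) to 0.0935. For Glul between media in MYC low cells, TMM scaling gave -0.0064. Single libraries left out gave -0.0072 (replicate 2 at 200 µM) to 0.0246 for Glul, with -0.001 and -0.0053 without replicates 1 and 2 at 10 µM. For the interaction of Got2, TMM scaling gave 0.0169, library totals 0.0197 and edgeR 0.009. Single libraries left out gave -0.0606 to 0.0434 for this interaction, positive without MYC high replicate 3 or MYC low replicate 2 at 200 µM or MYC high replicate 2 at 10 µM. The cause was not tested. Library totals shifted the median of all genes by -0.0855 and -0.0573 between MYC states at 200 and 10 µM, by 0.0468 and 0.0189 between media with MYC high and low, and by 0.028 for the interaction.

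Same-numbered libraries deviated from their group means with correlations of -0.049 to 0.026, so the replicate numbers do not pair them. Of 6 libraries, 3 at 10 µM and 1 in MYC low cells correlated best with their own number. With a replicate block, 9495 and 9214 genes passed between MYC states at 200 and 10 µM, against 9600 and 9232 without it. For the media with MYC high and low the block gave 9668 and 7653 against 9787 and 7666, and for the interaction 7663 against 7798. No call of the 8 changed under the block. With 1 MYC high library at 200 µM left out, the lone library is assumed to vary like the other groups. The lowest level of the 8 rested on 104 to 128 reads a library.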

Other observations

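Of the 53 related genes, 17 were under the filter on low values, and 6 had no read in any library. These 6 were the glutamate decarboxylase genes Gad1 and Gad2, the branched-chain aminotransferase gene Bcat1 and the aminotransferase genes Aadat, Agxt and Agxt2. A count of 0 allows up to 3 reads, or 2.65 to 3.43 normalized counts in a library, for counting error only. Arginase 1 (Arg1) and tyrosine aminotransferase (Tat), both abundant in hepatocytes, had 2 reads each over the 11 libraries. The asparaginase genes Aspg and Asrgl1 had 6 and 83 reads over all libraries, and Asrgl1 reached 27.6 normalized counts in 1 library.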
